A study of Mus musculus with 24 samples.

Results

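Bone marrow neutrophils of C57Bl/6J mice treated with interleukin 4 (IL4) were compared with untreated neutrophils. The comparison used 8 of the 24 libraries of the series, chosen by their treatment label. The tested libraries came from cells kept for 4 hours with IL4 at 20 ng/mL, and the untreated libraries from cells kept for 4 hours in the same medium with no addition. Both groups held 4 libraries. All cells were flushed from femurs and tibias, enriched on a Percoll density gradient and freed of red cells by lysis, so neither group was a sorted pure population. No genetic change is given for any group and the age and sex of the mice are unstated. The other 16 libraries, 4 to a group, received LPS at 10 ng/mL with IFNγ at 2 ng/mL (the N1 stimulus of the study), IGF1 at 10 ng/mL, or insulin at 10 ng/mL or at 100.0 ng/mL for the same time, and are used only where the IL4 libraries are set against them. Each library carries the number 6, 9, 10 or 11, once per group. Libraries with the same number were analysed as a pair, and values below are given in the order of these numbers. No source used here assigns a number to 1 mouse, so p-values measure the spread between these samples, which may be in part technical.

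IL4 is a cytokine of type 2 immunity. It binds the IL4 receptor alpha chain (Il4ra), which pairs with the common gamma chain (Il2rg) or with Il13ra1. The Janus kinases bound to these chains phosphorylate STAT6, and STAT6 dimers enter the nucleus and bind DNA at the palindrome TTCNNNNGAA. In macrophages this produces the state called alternative activation (M2), marked by Arg1, Retnla and Chil3. The study uses the name N2 for neutrophils in a state of this kind.

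The 8 libraries held between 18920359 and 26657198 mapped reads and between 15660 and 16326 genes with a value above 0. Values are RPKM (reads scaled to transcript length and to library size), so that levels of different genes can be set beside each other. Of 48709 genes in the files, 13097 reached 0.1 RPKM in at least 4 of the 8 libraries and were tested on log2(RPKM + 0.1) with limma. On this scale the fold change of a gene with few reads is understated. A gene was called when its Benjamini-Hochberg adjusted p was under 0.05 and its change at least 1.5-fold. The neutrophil label was borne out by its markers: Ly6g, the surface antigen of mouse neutrophils, averaged 253 RPKM in IL4 libraries and 293 RPKM in untreated libraries, and the summed level of 13 neutrophil markers ranged from 96530 to 118000 RPKM in IL4 libraries and from 106900 to 120900 RPKM in untreated libraries. Markers of other cells were also present. In IL4 and in untreated libraries the summed level ranged, for eosinophil markers, from 1827 to 2639 RPKM and from 2179 to 2440 RPKM, for erythroid markers from 631 to 5602 RPKM and from 667 to 6198 RPKM, and for B lineage markers from 530 to 746 RPKM and from 479 to 768 RPKM. In these bulk samples fewer cells of a type and less RNA per cell cannot be told apart. One feature of the series touches the comparisons at the end. Over genes with at least 20 reads, the median squared difference between the IL4 and the IGF1 library of the same number, in units of counting variance, was 0.876 to 1.21, where counting alone gives 0.455. It was 1.65 to 4.12 between IL4 and untreated libraries of the same number, 2.41 to 6.34 between IL4 libraries of different numbers, and 0.798 to 1.58 between libraries with insulin at 10 ng/mL and untreated libraries.

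Far more genes were higher than lower with IL4. Of 13097 genes tested, 345 were called (2.63%), of which 312 were higher (2.38%) and 33 lower (0.252%). A gene could reach the level for testing through 1 group alone. In 32 genes no untreated library was at 0.1 RPKM or above, and 22 of these were called higher; in 4 genes no IL4 library was, and 1 of these was called lower. Genes that passed in this way had to differ, and the remaining 13061 held 290 of the higher and 32 of the lower genes. These 13061 are not free of the same selection. In Pkib, Iigp1, Gm16341 and Clec10a, for example, not all untreated libraries reached 0.1 RPKM, so IL4 libraries were needed to pass. Arg1, Batf3, Ltc4s, Ccl7, Lifr, Gbp11, Car4, Fam19a3 and Slc28a3, of the genes named or counted as called members of lists further on, passed through IL4 libraries alone. Among the higher genes 168 changed at least 2-fold and 35 at least 4-fold, and 13 of the lower genes changed at least 2-fold. The median log2 fold change was 1.05 over the genes called higher, -0.87 over those called lower and 0.02 over all genes tested. In every called gene all 4 pairs differed in the same direction. The 4 IL4 libraries all lay above the 4 untreated libraries in 654 genes (4.99%) and below them in 225 (1.72%), and 254 of the 312 higher genes and 18 of the 33 lower genes were among these. Without the pair of number 9 the fit called 224 genes, 206 higher and 18 lower, and without the pair of number 11 it called 17 lower genes. Without the number as a block it called 218 genes, 212 higher and 6 lower.

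**Figure D1:**
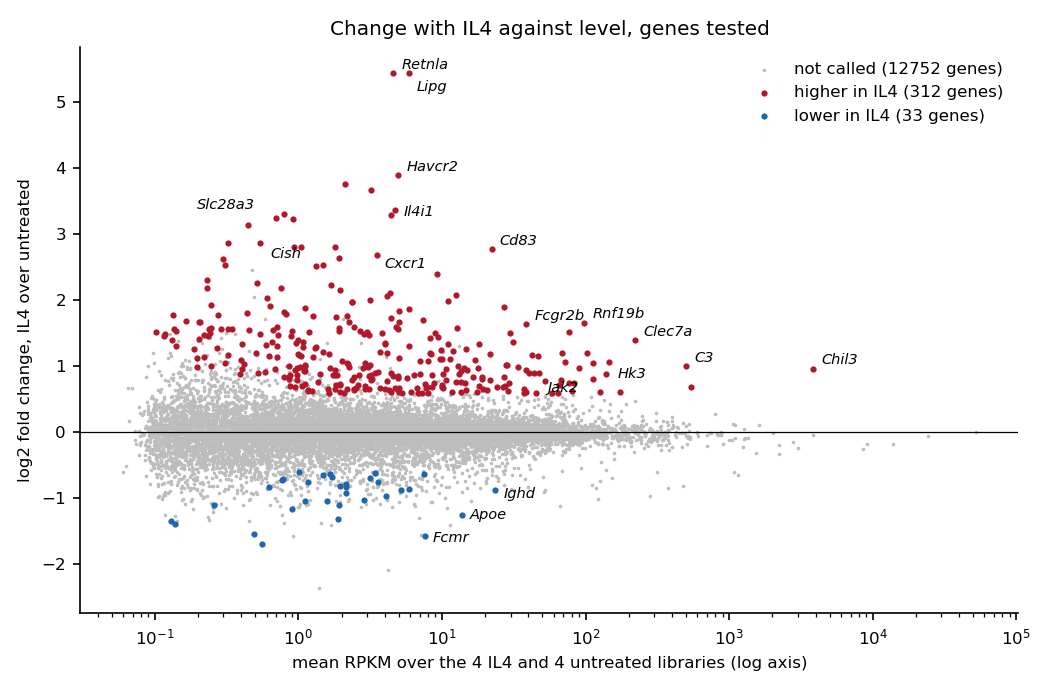
Each point is 1 of the 13097 genes tested, with its mean RPKM over the 8 libraries (log axis) and its log2 fold change, IL4 over untreated. Red points are the 312 genes called higher and blue points the 33 called lower; Retnla and Lipg stand highest, and Chil3, C3 and Clec7a combine a high level with a change above 1.5-fold.

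On the log2(RPKM + 0.1) scale, the largest rises were those of Retnla and Lipg. The ratio of reads was larger for some genes of few reads. Among them were Fam19a3, with a wide counting interval, and Gbp11, at 134 reads with IL4 against 1 without. Retnla (ENSMUSG00000061100; chromosome 16, 48842551 to 48844461, plus strand, GRCm38) encodes resistin-like alpha, a secreted protein of type 2 inflammation. It was at 13.2, 7.62, 8.41 and 6.98 RPKM in IL4 libraries, against 0.153, 0.126, 0.2004 and 0 RPKM in untreated libraries. All IL4 libraries lay far above all untreated libraries, and the fold change was 43.6 (log2 5.45 ± 0.23 SE, adjusted p = 0.000194, limma, n = 4 pairs). Its estimate ran from 3.13 with a pseudocount of 1 to 6.73 with a pseudocount of 0.01, and it was called in all 15 alternatives. Lipg (chromosome 18, 74939322 to 74961263, minus strand), endothelial lipase, was at 14.0, 8.33, 13.03 and 10.8 RPKM in IL4 libraries, against 0.193, 0.119, 0.264 and 0.101 RPKM in untreated libraries. Its groups were as far apart (log2 5.45 ± 0.13, adjusted p = 2.86e-05), the smallest p of all genes named here.

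Chil3 (ENSMUSG00000040809; chromosome 3, 106147554 to 106167564, minus strand), the chitinase-like lectin Ym1, had the largest gain in level of all genes called higher. It was at 5108, 5243, 5176 and 4695 RPKM in IL4 libraries and at 2831, 2780.4, 2391 and 2384 RPKM in untreated libraries. The groups did not overlap, and the change was 1.95-fold (log2 0.96 ± 0.07, adjusted p = 0.000581). Unlike Retnla, Chil3 was already among the abundant messages of untreated cells.

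The list of alternative activation genes held 42 members, of which 35 were tested and 16 called, all higher, with a median log2 fold change of 0.96 over the tested members and 0.02 over all genes tested, of which 2.38% were called higher. Arg1 and Batf3 were tested only because of their IL4 libraries, so neither the count nor the median is evidence of a direction for the list. The list also contains genes that the study named from these libraries (Arg1, Retnla and Chil3), and its count is not independent evidence of a direction. Il4i1, a secreted amino acid oxidase first known as an IL4-induced gene, was at 5.09, 12.9, 6.07 and 10.8 RPKM in IL4 libraries, against 0.503, 1.10, 0.470 and 0.863 RPKM in untreated libraries (log2 3.37 ± 0.10, adjusted p = 5.54e-05). The transcription factor gene Tfec was at 3.39, 1.93, 4.22 and 1.92 RPKM with IL4 and at 0.620, 0.309, 0.842 and 0.356 RPKM without (log2 2.23 ± 0.10, adjusted p = 0.000176). Among lectins of the list, Mgl2, a galactose-type C-type lectin, averaged 2.61 ± 1.33 RPKM in IL4 libraries and 0.333 ± 0.0811 RPKM in untreated libraries (SD, n = 4 each), and its relative Clec10a 0.417 ± 0.0881 and 0.0761 ± 0.0442 RPKM. Both rose (adjusted p = 0.000939 and 0.0112). The other called members besides those described further on were Flt1, Matk, Cdh1 and Batf3, a dendritic cell transcription factor with 66 reads in IL4 libraries and 1 in untreated libraries, a ratio of 72.0 with an exact counting interval of 12.5 to 2886.

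Arg1, arginase 1, rested on few reads. It was at 0.144, 0.170, 0.356 and 0.215 RPKM in IL4 libraries, against 0, 0.0509, 0 and 0 RPKM in untreated libraries, that is 30 reads over the IL4 libraries and 2 over the untreated ones. The ratio of reads per mapped read was 16.4 (exact 95% interval for counting error only, 4.15 to 141). It reached the level for testing through its IL4 libraries alone. It was called higher (log2 1.49 ± 0.29, adjusted p = 0.0399), but the call was lost with no filter on low values (adjusted p = 0.0636), and it ended when any one number was left out (adjusted p = 0.109 without 6, 0.0688 without 9, 0.1 without 10 and 0.149 without 11). Arg2, the mitochondrial arginase, was far more abundant, at 129.9, 162, 186 and 131 RPKM in IL4 libraries and 86.4, 101, 117 and 93.04 RPKM in untreated libraries, and rose (log2 0.61 ± 0.06, adjusted p = 0.0024); without number 9 its change fell just under 1.5-fold. Of 14 arginine and polyamine genes tested, 3 were called, all higher (median 0.10, where 2.38% of all genes were called higher): Arg1, Arg2 and Srm, spermidine synthase. Srm (log2 0.92 ± 0.17, adjusted p = 0.0331) lost its call without number 6 (adjusted p = 0.109), 9 (0.155) or 10 (0.0833). Nos2, the inducible nitric oxide synthase, did not reach the level for testing in either group, at 0.0289, 0.0227, 0.0340 and 0.0240 RPKM with IL4 and 0, 0, 0.0181 and 0.00961 RPKM without.

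**Figure D2:**
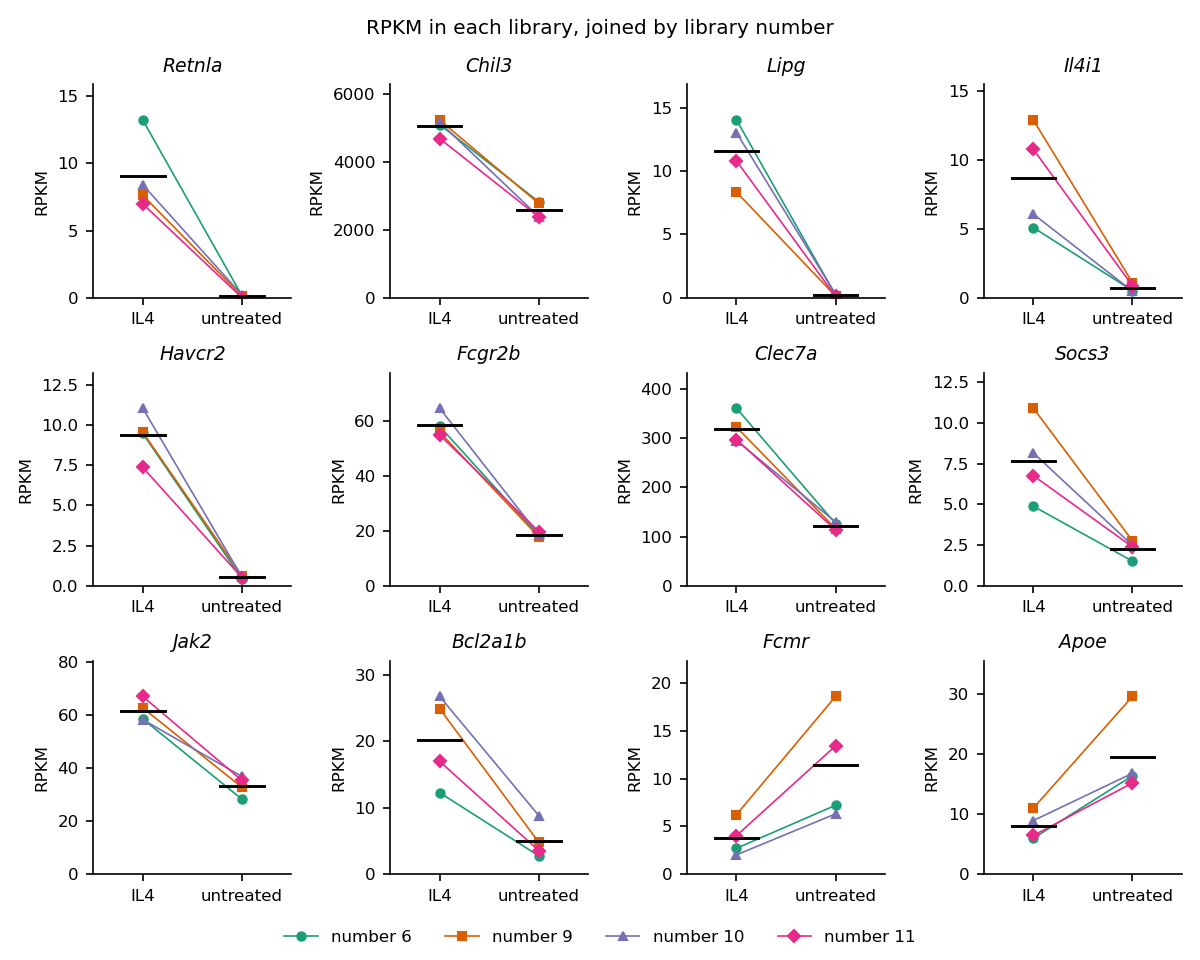
RPKM of 12 genes in each IL4 library (left) and each untreated library (right) of a panel; lines join libraries with the same number and black bars are group means. For the 10 genes that rose, every line runs from a higher IL4 value to a lower untreated value, and for Fcmr and Apoe the lines run the other way.

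A window of 250 bases upstream of each listed gene start was searched for the STAT6 palindrome TTCNNNNGAA and for TTCNNNGAA, the shorter spacing that other STAT proteins favour (RefSeq promoters, GRCm38.p6; both motifs read the same on both strands, and a match to one cannot overlap a match to the other at the same TTC). TTCNNNNGAA was present in 29 of 294 upstream windows (9.86%) of 232 genes called higher, in 1 of 28 windows (3.57%) of 20 genes called lower and in 564 of 11960 windows (4.72%) of all tested genes with an entry. TTCNNNGAA was present in 29 of the 294 windows of higher genes (9.86%), in 0 of the 28 of lower genes and in 743 of the 11960 (6.21%). The higher genes with this form include Sirpb1a, Sirpb1b and Sirpb1c, near copies of each other, so the windows are not all independent. A match is a description of these letters and no measure of binding. The windows of 4 alternative activation genes that rose and hold the longer palindrome are shown as examples of the list. Tfec, another called member with a match, is not printed. Each printed window ends at the last base before a RefSeq gene start, which can differ from the gene extent given above, and is written 5′ to 3′ along the gene with the match in capitals.

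Retnla (chr16:48842359-48842608, plus strand): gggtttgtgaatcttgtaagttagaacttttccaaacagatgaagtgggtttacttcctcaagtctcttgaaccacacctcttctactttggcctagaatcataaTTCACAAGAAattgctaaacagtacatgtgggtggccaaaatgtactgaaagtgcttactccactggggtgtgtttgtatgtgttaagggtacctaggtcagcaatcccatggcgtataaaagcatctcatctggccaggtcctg
Fcer2a (chr8:3690862-3691111, minus strand): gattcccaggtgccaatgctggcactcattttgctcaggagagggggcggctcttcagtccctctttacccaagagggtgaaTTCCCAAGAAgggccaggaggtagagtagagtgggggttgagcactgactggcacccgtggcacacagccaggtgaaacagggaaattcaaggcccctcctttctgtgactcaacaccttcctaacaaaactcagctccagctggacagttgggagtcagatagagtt
Il1rn (chr2:24345041-24345290, plus strand): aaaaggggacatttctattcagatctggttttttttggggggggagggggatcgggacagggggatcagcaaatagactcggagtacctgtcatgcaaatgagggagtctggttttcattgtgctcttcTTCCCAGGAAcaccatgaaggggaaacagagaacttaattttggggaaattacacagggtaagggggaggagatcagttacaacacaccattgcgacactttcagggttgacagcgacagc
Pdcd1lg2 (chr19:29410669-29410918, plus strand): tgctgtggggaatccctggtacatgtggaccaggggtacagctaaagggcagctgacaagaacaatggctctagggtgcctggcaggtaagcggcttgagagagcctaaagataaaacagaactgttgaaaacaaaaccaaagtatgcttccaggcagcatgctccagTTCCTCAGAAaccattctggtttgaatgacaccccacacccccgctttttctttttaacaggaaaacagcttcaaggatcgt

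The match started 145 bases before the gene start in Retnla, 168 in Fcer2a, 121 in this start of Il1rn and 82 in Pdcd1lg2. The windows of Chil3 and Socs3 held the shorter form, with the same letters in both.

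Chil3 (chr3:106167565-106167814, minus strand): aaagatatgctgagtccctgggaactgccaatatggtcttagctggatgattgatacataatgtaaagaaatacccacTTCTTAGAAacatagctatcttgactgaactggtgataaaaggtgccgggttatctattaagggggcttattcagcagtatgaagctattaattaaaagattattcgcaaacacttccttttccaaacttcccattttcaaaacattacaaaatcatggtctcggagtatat
Socs3 (chr11:117969367-117969616, minus strand): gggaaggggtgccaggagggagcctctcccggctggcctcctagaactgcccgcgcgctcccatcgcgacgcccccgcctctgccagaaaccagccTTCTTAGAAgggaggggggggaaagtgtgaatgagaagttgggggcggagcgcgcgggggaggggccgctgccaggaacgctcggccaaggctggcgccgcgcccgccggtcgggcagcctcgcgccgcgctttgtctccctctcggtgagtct

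Of these genes, Fcer2a encodes CD23, the low-affinity IgE receptor, and was at 7.35, 23.2, 8.83 and 15.9 RPKM with IL4 and at 2.89, 8.46, 3.29 and 5.09 RPKM without (log2 1.45 ± 0.07, adjusted p = 0.000203). Each IL4 library lay above its own pair, although the ranges of the groups overlapped. Il1rn, the IL1 receptor antagonist, was at 75.4, 99.5, 119 and 96.4 RPKM in IL4 libraries, against 37.1, 51.3, 48.7 and 48.9 RPKM in untreated libraries (log2 1.06 ± 0.07, adjusted p = 0.000581). Pdcd1lg2, the PD-1 ligand PD-L2, was at 0.983, 1.70, 1.46 and 1.12 RPKM and 0.166, 0.480, 0.340 and 0.284 RPKM (log2 1.79 ± 0.14, adjusted p = 0.0009).

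In the receptor and its signalling chain, Jak2 was the one gene called. Of 21 members of the IL4 receptor and JAK/STAT list 20 were tested, 1 was higher and none lower, with a median log2 fold change of 0.01. Il13ra2, the decoy receptor, was at 0 in all 8 libraries. Jak2 (ENSMUSG00000024789; chromosome 19, 29251828 to 29313080, plus strand), a Janus kinase, was at 58.4, 62.6, 58.2 and 66.9 RPKM in IL4 libraries and at 28.2, 32.7, 36.8 and 35.3 RPKM in untreated libraries. The groups did not overlap (log2 0.89 ± 0.08, adjusted p = 0.00132). The receptor chain Il4ra was at 15.1, 25.6, 19.0 and 20.7 RPKM with IL4, against 13.02, 14.0, 12.7 and 13.1 RPKM without. All IL4 libraries lay above all untreated ones and the adjusted p was 0.0367, but the estimate (log2 0.57 ± 0.11) stayed under 1.5-fold, except without number 6, where it was called (adjusted p = 0.018). Without number 9, 10 or 11 the adjusted p of Il4ra was 0.147, 0.134 and 0.157.

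Stat6, the transcription factor of the pathway, was at 63.0, 80.2, 81.9 and 69.2 RPKM in IL4 libraries and at 73.7, 78.8, 79.3 and 72.2 RPKM in untreated libraries (log2 -0.05 ± 0.07, adjusted p = 0.725). Il2rg averaged 15.5 ± 2.57 and 15.8 ± 2.11 RPKM, and Il13ra1 4.25 ± 0.543 and 5.23 ± 0.789 RPKM in IL4 and untreated libraries (SD, n = 4 each); neither was called (adjusted p = 0.809 and 0.188). Among the other kinases Jak1 averaged 99.9 ± 10.1 RPKM with IL4 and 105 ± 4.81 RPKM without, Tyk2 6.64 ± 0.993 and 6.58 ± 0.660 RPKM, and Jak3 was low at 0.696 ± 0.158 and 0.489 ± 0.0809 RPKM. The estimates of Stat2, Stat3, Stat4, Stat5a and Stat5b ran from -0.12 (Stat4) to 0.33 (Stat5a) on the log2 scale, and none was called.

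Of 20 feedback genes of the pathway tested, 3 were called, all higher, with a median log2 fold change of 0.18, where 2.38% of all genes were called higher. Cish, a SOCS protein and a known STAT5 target, was at 2.13, 2.23, 2.33 and 2.62 RPKM with IL4 and at 0.434, 0.217, 0.274 and 0.403 RPKM without (log2 2.52 ± 0.16, adjusted p = 0.000473). Socs3 was at 4.89, 10.9, 8.16 and 6.76 RPKM in IL4 libraries, against 1.52, 2.77, 2.49 and 2.39 RPKM in untreated libraries (log2 1.68 ± 0.09, adjusted p = 0.000333). Socs1, an inhibitor of Janus kinases, was at 5.41, 9.23, 5.63 and 7.80 RPKM in IL4 libraries, against 1.61, 2.31, 1.67 and 0.834 RPKM in untreated libraries (log2 2.10 ± 0.27, adjusted p = 0.0234). The groups of all 3 genes were apart, but with 3 pairs the Socs1 call was lost without number 6 (adjusted p = 0.0669), 9 (0.156) or 10 (0.0865).

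**Figure D3:**
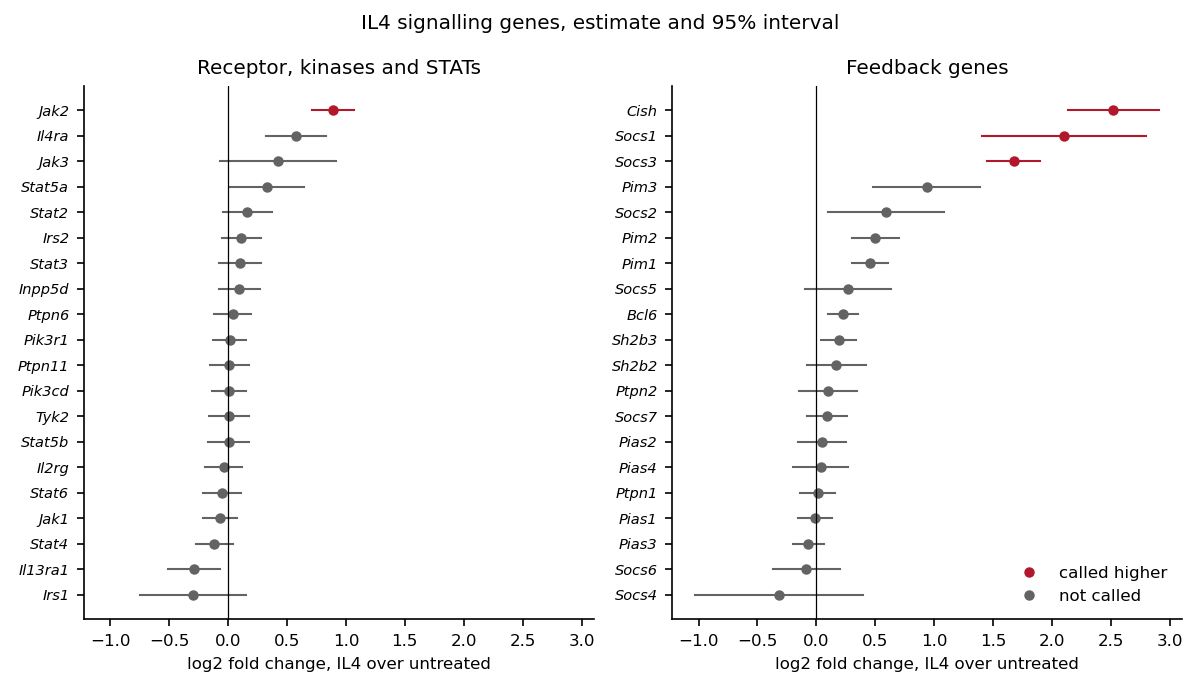
Log2 fold change, IL4 over untreated, with its 95% interval for 20 genes of the receptor and JAK/STAT list (left) and 20 feedback genes (right); red marks genes called higher. Jak2 on the left and Cish, Socs1 and Socs3 on the right were called, and most of the others lie near 0.

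Of 28 inhibitory and checkpoint receptors and their ligands, which restrain immune cells, 7 were called, all higher, with a list median of 0.08, where 2.38% of all genes were called higher. Havcr2, the receptor TIM3, was at 9.48, 9.55, 11.04 and 7.36 RPKM with IL4, against 0.436, 0.621, 0.558 and 0.514 RPKM without (log2 3.90 ± 0.12, adjusted p = 5.54e-05). It was nearly silent in each untreated library and clearly present in each IL4 library. Fcgr2b, the inhibitory Fc receptor for IgG, was at 58.0, 56.0, 64.6 and 54.9 RPKM in IL4 libraries and at 18.3, 17.8, 18.6 and 19.7 RPKM in untreated libraries (log2 1.64 ± 0.07, adjusted p = 0.000134). Replicates of Fcgr2b differed little within a group. The sialic acid binding receptor Siglece averaged 104 ± 23.3 RPKM and 61.6 ± 11.4 RPKM, Cd300lf 95.6 ± 3.40 and 57.2 ± 2.86 RPKM and Cd274, the PD-1 ligand PD-L1, 6.06 ± 2.33 and 3.88 ± 1.62 RPKM in IL4 and untreated libraries (adjusted p = 0.0012, 0.0009 and 0.00617).

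Of 27 Fc receptors and phagocytic receptors tested, 5 were called, all higher, where 2.38% of all genes were, while the median of the list was 0.00 on the log2 scale. Clec7a, the β-glucan receptor Dectin-1, was the most abundant of these, at 360.1, 322, 295 and 296 RPKM with IL4 and 126, 116, 129 and 113 RPKM without (log2 1.39 ± 0.07, adjusted p = 0.000217). Clec4a3, a C-type lectin of the DCIR group, was at 11.1, 8.75, 10.1 and 6.97 RPKM in IL4 libraries, against 2.92, 1.64, 3.76 and 1.92 RPKM in untreated libraries (log2 1.86 ± 0.15, adjusted p = 0.00163). Both genes were apart between the groups. The list does not hold all Fc receptor genes. Fcmr and Fcrl1, outside it, were called lower (log2 -1.57 and -1.04, limma adjusted p = 0.000194 and 0.00941).

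Among cytokine and growth factor receptors 6 of 36 were called, all higher, with a median of 0.15, where 2.38% of all genes were called higher. Lifr, 1 of the 6, was tested only because of its IL4 libraries. The IL33 receptor Il1rl1 (ST2) was at 3.34, 3.68, 3.48 and 4.28 RPKM with IL4 and at 0.907, 1.19, 1.15 and 1.44 RPKM without (log2 1.59 ± 0.09, adjusted p = 0.000357). Its shared co-receptor Il1rap was at 7.75, 8.15, 6.45 and 6.45 RPKM and 2.02, 2.42, 2.48 and 2.37 RPKM (log2 1.59 ± 0.11, adjusted p = 0.000581) and rose to a like degree. Il1rl1 also stands on the list of basophil and mast cell markers, of which 1 of 11 was called (9.09%). The summed level of that list was 59.7 to 96.7 RPKM in IL4 libraries and 68.4 to 103 RPKM in untreated libraries. Csf2rb, the β chain of the GM-CSF, IL3 and IL5 receptors, averaged 70.5 ± 6.22 RPKM with IL4 and 46.8 ± 0.993 RPKM without (adjusted p = 0.00366), a change that was under 1.5-fold without number 10. Ifngr1, a chain of the IFNγ receptor, averaged 66.1 ± 7.09 RPKM with IL4 and 38.4 ± 2.09 RPKM without (log2 0.78 ± 0.06, adjusted p = 0.000813).

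Of 29 cytokines and chemokines tested, 4 were called, all higher, with a median of -0.02, where 2.38% of all genes were called higher. Csf1, the macrophage growth factor M-CSF, was at 14.2, 17.3, 28.4 and 16.4 RPKM in IL4 libraries, against 4.23, 6.03, 8.92 and 5.98 RPKM in untreated libraries (log2 1.58 ± 0.07, adjusted p = 0.000158). The chemokine Ccl4 was at 11.4, 25.5, 34.3 and 23.0 RPKM and 7.81, 14.3, 23.5 and 13.9 RPKM, above its own pair in all 4 numbers (log2 0.66 ± 0.07, adjusted p = 0.0038). Ccl7, a monocyte-attracting chemokine, had 19 reads in IL4 libraries and 2 in untreated libraries, a ratio of 10.4 (exact counting interval 2.50 to 91.8). Its IL4 libraries alone took it past the filter, and with no filter the adjusted p was 0.0121. Its call (adjusted p = 0.0108) was lost without number 6 (0.0503), 9 (0.0575) or 11 (0.0538). The inflammatory cytokine Tnf was not called, at 20.6, 32.6, 64.4 and 47.7 RPKM with IL4 and at 30.9, 35.9, 79.98 and 56.0 RPKM without (log2 -0.32 ± 0.08, adjusted p = 0.111). Il12a, a subunit of IL12, was at 2.30, 2.00, 1.70 and 1.15 RPKM with IL4, against 3.17, 3.47, 2.39 and 1.70 RPKM without, below its pair each time (log2 -0.55 ± 0.09, adjusted p = 0.026), a change just under 1.5-fold.

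Of the chemokine receptors, Cxcr1 and Cxcr2 rose. Cxcr2, the main receptor for neutrophil-attracting chemokines, was at 618, 658, 752 and 646 RPKM in IL4 libraries and at 411, 402, 422 and 429.9 RPKM in untreated libraries (log2 0.68 ± 0.07, adjusted p = 0.00239). Its relative Cxcr1, at a lower level, was at 8.503, 3.86, 8.03 and 4.15 RPKM with IL4, against 1.35, 0.479, 0.884 and 0.739 RPKM without (log2 2.68 ± 0.13, adjusted p = 0.000191). Of 34 chemotactic and adhesion receptors 5 were higher and 2 lower, with a median of 0.06, against 2.38% and 0.252% of all genes. Pecam1, the adhesion molecule CD31, averaged 20.7 ± 3.73 RPKM and 8.53 ± 1.02 RPKM (adjusted p = 0.0131), a call lost without number 6 (0.0867) or 11 (0.0515). The 2 lower ones were Ccr2 and Cx3cr1, chemokine receptors known from monocytes. Ccr2 was at 2.14, 1.00, 1.01 and 1.15 RPKM in IL4 libraries and 2.80, 1.97, 1.94 and 1.72 RPKM in untreated libraries (log2 -0.68 ± 0.12, adjusted p = 0.0338), a call that ended without any one of the numbers (adjusted p = 0.0564 without 6, 0.166 without 9, 0.0839 without 10 and 0.0966 without 11).

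Of 30 BCL2 family and apoptosis genes tested, 5 were called, all higher, with a median of 0.10, where 2.38% of all genes were called higher. The Bcl2a1 genes encode A1, an anti-apoptotic protein of neutrophils. Bcl2a1b was at 12.2, 24.9, 26.7 and 16.9 RPKM with IL4 and 2.74, 4.78, 8.80 and 3.53 RPKM without (log2 2.07 ± 0.13, adjusted p = 0.000581), and Bcl2a1a and Bcl2a1d rose too (log2 3.67 ± 0.27 and 1.54 ± 0.13). These copies are near identical, so how reads were divided among them is uncertain. Bcl2l11, the pro-apoptotic protein BIM, was also higher, at 9.67, 13.4, 17.3 and 12.3 RPKM against 5.47, 7.56, 8.84 and 6.43 RPKM (log2 0.88 ± 0.06, adjusted p = 0.000635), as was Bcl2 (log2 1.35 ± 0.16, adjusted p = 0.00529).

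Of 39 lipid genes tested 4 were higher and 2 lower, with a median of 0.01, where 2.38% of all genes were called higher and 0.252% lower. Ltc4s, leukotriene C4 synthase, was at 0.867, 0.884, 1.07 and 0.718 RPKM with IL4 and 0, 0.0510, 0 and 0 RPKM without, 59 reads against 1, a ratio of 64.4 with an exact counting interval of 11.1 to 2585 (adjusted p = 0.000544). It was tested only because its IL4 libraries passed the filter, and with no filter the adjusted p was 0.00223. Apoe, the lipid carrier of lipoproteins, was at 5.95, 10.98, 8.90 and 6.42 RPKM in IL4 libraries, against 16.4, 29.6, 16.8 and 15.2 RPKM in untreated libraries (log2 -1.25 ± 0.10, adjusted p = 0.00108). The cholesterol exporter Abca1 was at 2.54, 3.16, 2.24 and 2.75 RPKM and 3.56, 7.16, 5.32 and 5.78 RPKM (log2 -0.97 ± 0.13, adjusted p = 0.0109), a call lost without number 9 (adjusted p = 0.0608) or 11 (0.059). Of 38 genes of glucose uptake, glycolysis and glycogen 2 were higher (5.26%), with a median of -0.04, where 2.38% of all genes were called higher. Hk3, the hexokinase of myeloid cells, was at 200, 189, 211 and 187 RPKM with IL4 and at 107, 92.1, 88.3 and 88.2 RPKM without (log2 1.07 ± 0.07, adjusted p = 0.000544). Ldhb, a lactate dehydrogenase subunit, averaged 4.21 ± 0.645 RPKM and 1.48 ± 0.466 RPKM (adjusted p = 0.00302).

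Of 45 transcription factors tested, 9 were called, all higher, with a median of 0.15, where 2.38% of all genes were called higher. Irf7, an interferon regulatory factor, was at 24.9, 16.5, 14.6 and 15.1 RPKM with IL4 and 5.44, 3.83, 4.15 and 3.95 RPKM without (log2 1.99 ± 0.08, adjusted p = 0.000134). Bhlhe40 was at 12.2, 19.2, 21.5 and 18.8 RPKM in IL4 libraries, against 6.16, 10.7, 10.4 and 10.2 RPKM in untreated libraries (log2 0.93 ± 0.06, adjusted p = 0.000544). Runx1, a factor of blood cell development, averaged 6.28 ± 0.277 RPKM and 3.52 ± 0.0858 RPKM (adjusted p = 0.00154), Pparg, a lipid-sensing nuclear receptor, 0.525 ± 0.101 and 0.118 ± 0.0627 RPKM (adjusted p = 0.0184), and Egr2 1.83 ± 0.676 and 0.554 ± 0.192 RPKM (adjusted p = 0.0284). Atf3, a stress-responsive factor, averaged 16.9 ± 5.28 and 10.3 ± 3.99 RPKM (adjusted p = 0.00308). The other 3 were Myc, Egr1 and Batf3. The list does not hold all such factors. Tcf7 and Sox4, outside it, were called lower (log2 -0.87 and -0.93, limma adjusted p = 0.00146 and 0.00202). Irf7 also stands among 32 interferon stimulated genes, of which 3 were called, all higher (9.38%, against 2.38% of all genes), with a median of 0.03. Of 29 NF-kB target and feedback genes 4 were higher (13.8%, against the same 2.38%), with a median of 0.07: Cd83, Cd40, Ccl4 and Ier3. Cd40, a costimulatory receptor, averaged 2.23 ± 0.842 RPKM with IL4 and 1.08 ± 0.397 RPKM without (adjusted p = 0.00247), and the Ier3 call (adjusted p = 0.0203) was lost without number 9 (0.051) or 10 (0.102). The other interferon stimulated genes called were Iigp1 and Zbp1, and both calls were lost when single pairs were left out: Iigp1 without number 6 (adjusted p = 0.102), 9 (0.144) or 11 (0.122), and Zbp1 without 6 (0.0736), 9 (0.217), 10 (0.105) or 11 (0.157).

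None of 20 NADPH oxidase and NET genes and none of 23 granule protein genes tested was called, with medians of -0.08 and -0.10 on the log2 scale. Over all genes 2.63% were called, a share at which lists of this size can hold no called gene. Prkcb and Prkcd, protein kinase C isoforms, were the members of the first list with an adjusted p under 0.05 (0.0125 and 0.0413), at changes under 1.5-fold (log2 -0.38 and 0.33), and Adam8, a membrane protease, was the one in the second (log2 0.43, adjusted p = 0.0189). Lcn2, lipocalin 2 of specific granules, averaged 1159 ± 102 RPKM in IL4 libraries and 1355 ± 85.6 RPKM in untreated libraries (adjusted p = 0.191).

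**Figure D4:**
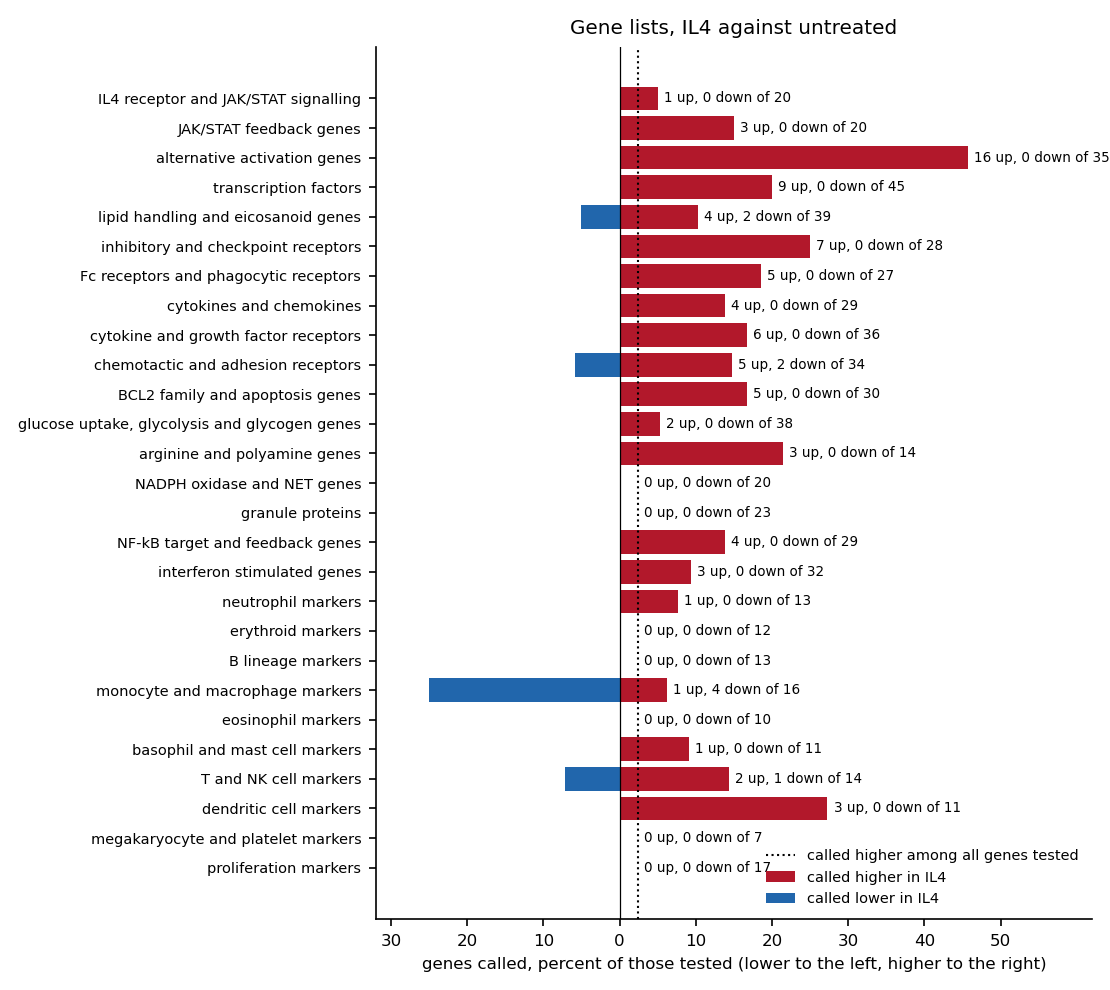
Share of tested genes called higher (red, to the right) or lower (blue, to the left) in IL4 for 17 pathway lists and 10 cell type marker lists; the dotted line is the 2.38% called higher among all genes tested. Alternative activation genes reach 16 of 35, and monocyte and macrophage markers hold the most falls, 4 of 16. Granule genes hold 0 of 23 and NADPH oxidase and NET genes 0 of 20, which is near the share over all genes.

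Among the falls of genes that averaged at least 1 RPKM in 1 of the groups, the largest was that of Fcmr, the Fc receptor for IgM, at 2.70, 6.23, 2.01 and 4.02 RPKM in IL4 libraries, against 7.20, 18.6, 6.30 and 13.4 RPKM in untreated libraries (log2 -1.57 ± 0.08, adjusted p = 0.000194). It was followed by Rasgrp3, a Ras activator, at 0.761, 1.36, 0.755 and 1.13 RPKM and 1.69, 4.11, 1.79 and 3.49 RPKM (log2 -1.32 ± 0.12, adjusted p = 0.00202). Ighd, the constant region of IgD, was at 9.29, 28.2, 9.48 and 19.0 RPKM with IL4 and at 15.5, 53.4, 18.7 and 34.9 RPKM without (log2 -0.87 ± 0.06, adjusted p = 0.00067). Fcrl1, an Fc receptor-like protein of B cells, fell as well (log2 -1.04 ± 0.14, adjusted p = 0.00941), a call lost without number 6 (adjusted p = 0.0503). Tcf7, a T cell factor, averaged 4.11 ± 1.13 RPKM and 7.59 ± 2.14 RPKM (adjusted p = 0.00146), and Sox4, another factor of the same DNA-binding family, 1.45 ± 0.506 and 2.86 ± 1.06 RPKM (adjusted p = 0.00202). Cxcr3, a chemokine receptor of T cells, averaged 0.530 ± 0.217 and 1.27 ± 0.207 RPKM (adjusted p = 0.018), a call lost without number 11 (0.0673).

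Some of these genes are known from B cells, and for part of them the levels differed between the numbers as those of Ms4a1 did. Ms4a1, the B cell antigen CD20, was at 3.77, 8.70, 2.41 and 7.83 RPKM in IL4 libraries and 3.25, 8.45, 2.84 and 8.07 RPKM in untreated libraries, highest with number 9 and next with 11 in both groups (adjusted p = 0.987). Of 13 B lineage markers tested none was called, with a median of 0.00, and their summed level in libraries 6, 9, 10 and 11 was 534, 746, 530 and 682 RPKM with IL4, against 576, 768, 479 and 716 RPKM without. Fcer2a, Il4i1, Fcmr and Ighd, given above, were higher with numbers 9 and 11 than with 6 and 10 in both groups, and so were Tcf7 and Rasgrp3. Fcrl1 did not keep this order, at 0.753, 0.956, 1.06 and 1.17 RPKM in IL4 libraries, where number 10 was above 9, against 1.59, 2.70, 1.75 and 2.60 RPKM in untreated libraries. Numbers 9 and 11 were above 6 and 10 for Cd83, a surface protein of activated B and dendritic cells, at 21.0, 64.5, 25.4 and 43.1 RPKM in IL4 libraries, against 2.66, 9.08, 3.37 and 7.76 RPKM in untreated libraries (log2 2.77 ± 0.09, adjusted p = 6.21e-05). The same held for Cd22, an inhibitory receptor of B cells, at 5.23, 15.2, 5.71 and 12.2 RPKM and 2.45, 6.23, 2.76 and 6.22 RPKM (log2 1.08 ± 0.08, adjusted p = 0.000639), and for Cd74, the invariant chain of MHC class II, at 94.4, 269, 143 and 207 RPKM and 54.6, 158, 61.8 and 122 RPKM (log2 0.88 ± 0.09, adjusted p = 0.00299).

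Over all called genes, numbers 9 and 11 were both above 6 and 10 in both groups in 80 of the 312 higher genes (25.6%) and in 8 of the 33 lower genes (24.2%), against 1019 of all 13097 genes tested (7.78%). The opposite order, 6 and 10 both above 9 and 11, was found in 26 of the higher genes (8.33%) and in 408 of all genes (3.12%), and Lipg, Retnla, Cxcr1, Tfec, Plac8 and Clec4a3 were among the 26. The part of B cells in the changes was not tested. Without the number as a block the adjusted p was 0.291 for Fcer2a, 0.509 for Cd22, 0.589 for Cd74, 0.225 for Fcmr and 0.651 for Ighd, and these were no longer called; Il4i1 and Cd83 still were (adjusted p = 0.00199 and 0.0346).

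**Figure D5:**
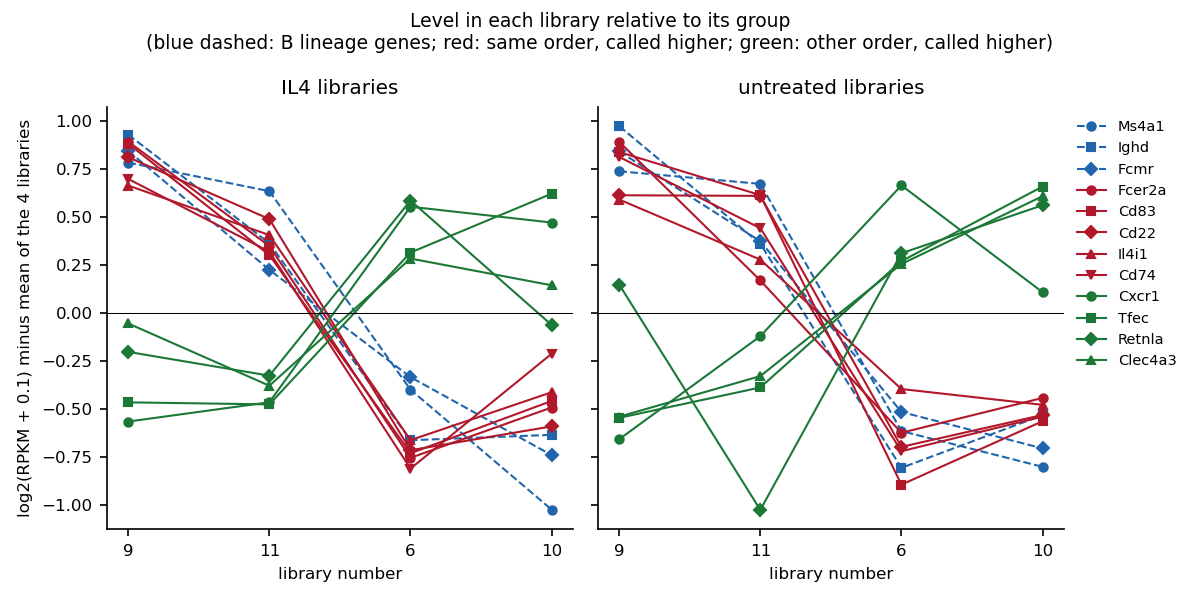
Level of 12 genes in each IL4 library (left) and untreated library (right), as log2(RPKM + 0.1) minus the mean of its 4 libraries, with the library numbers in the order 9, 11, 6, 10. B lineage genes (blue, dashed) and 5 genes called higher (red) are highest with number 9 in both groups, and 4 other genes called higher (green) are above their mean with number 6 in both.

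Some markers of other cell types were called; over all genes 2.38% were called higher and 0.252% lower. Of 16 monocyte and macrophage markers 1 was higher and 4 were lower, with a median of -0.09, at a summed level of 302 to 400.2 RPKM in IL4 libraries and 278 to 345 RPKM in untreated libraries. Adgre1, the macrophage antigen F4/80, was the one that rose, at 62.1, 47.7, 89.03 and 55.9 RPKM with IL4 and 24.7, 19.9, 44.4 and 26.9 RPKM without (log2 1.16 ± 0.07, adjusted p = 0.000445). Those that fell were Ms4a4c, F13a1, Ccr2 and Cx3cr1, and the call of F13a1 (adjusted p = 0.0219) was lost without number 6 (0.0608), 9 (0.0945) or 11 (0.0854). Csf1r, the M-CSF receptor, was at 28.3, 28.6, 45.5 and 29.6 RPKM and 27.9, 24.2, 39.2 and 26.7 RPKM (adjusted p = 0.277). Of 14 T and NK cell markers 2 were higher and 1 lower, with a median of -0.18, at summed levels of 23.95 to 32.1 RPKM and 21.4 to 26.9 RPKM. Cd8a, a T cell co-receptor, was at 3.45, 7.50, 3.67 and 5.75 RPKM in IL4 libraries, against 1.12, 1.29, 0.670 and 1.66 RPKM in untreated libraries (log2 2.01 ± 0.17, adjusted p = 0.00161), and Gzma, granzyme A, averaged 2.93 ± 0.890 and 0.939 ± 0.320 RPKM (adjusted p = 0.00593), while Cd3e, a chain of the T cell receptor complex, averaged 1.78 and 1.72 RPKM (adjusted p = 0.828). Klrd1, an NK cell receptor, was called lower (adjusted p = 0.026). The estimate stayed below 0 in all 15 alternatives, but the call was lost in 6 of them, among them without number 9 (0.146) or 11 (0.118). Among T and NK cell genes outside this list, Cd8b1, Eomes, Il2rb, Cxcr6 and Icos were called higher. Tcf7 and Cxcr3, given above, were called lower. These genes were picked after their values were seen. Of 11 dendritic cell markers 3 were higher, Cd74, H2-Ab1 and Batf3 (the last tested only because of its IL4 libraries), with a median of 0.23, at summed levels of 119 to 348 RPKM and 75.6 to 216 RPKM. Most of this sum was Cd74, at 94.4 to 269 RPKM with IL4 and 54.6 to 158 RPKM without. No eosinophil, erythroid, megakaryocyte or proliferation marker was called. The part of these cells in the other results was not tested.

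Further genes singled out by the size of their change have varied roles. C3, the central complement component, was at 624, 579, 833 and 627 RPKM with IL4 and at 346, 293, 368 and 309 RPKM without (log2 1.01 ± 0.07, adjusted p = 0.000581). Rnf19b, an E3 ubiquitin ligase, was at 122, 148, 183 and 139.7 RPKM and 39.4, 44.2, 56.2 and 46.8 RPKM (log2 1.66 ± 0.06, adjusted p = 7.73e-05), and Plac8 at 146, 127, 167 and 131 RPKM and 71.8, 54.2, 64.0 and 59.3 RPKM (log2 1.19 ± 0.07, adjusted p = 0.000407). In each of these 3 genes the groups were apart. The protease inhibitor gene Serpina3g was at 6.65, 8.82, 8.39 and 8.61 RPKM in IL4 libraries, against 0.802, 0.857, 0.683 and 0.604 RPKM in untreated libraries (log2 3.30 ± 0.13, adjusted p = 0.000134). Slc28a3, a nucleoside transporter, was at 1.53, 0.921, 1.61 and 1.29 RPKM with IL4 and 0.0695, 0.0524, 0.0355 and 0.0377 RPKM without (log2 3.25 ± 0.20, adjusted p = 0.000407). All its untreated libraries were under the filter, and with no filter the adjusted p was 0.001998. Car4, a membrane-bound carbonic anhydrase, was at 0.498, 0.586, 0.954 and 0.565 RPKM in IL4 libraries and at 0 in all untreated libraries, 117 reads against 0. With the floor of 3 reads over the untreated group, it was at least 42.5-fold higher with IL4. Fam19a3, which encodes a secreted chemokine-like protein, had 79 reads against 1, a ratio of 86.2 (exact counting interval 15.0 to 3446), and it passed the filter through its IL4 libraries alone (adjusted p = 0.0382 with no filter). Its call (adjusted p = 0.0277) was lost without number 6 (0.108), 9 (0.0923) or 11 (0.129). Pkib, an inhibitor of protein kinase A, averaged 1.77 ± 1.03 RPKM with IL4 and 0.0763 ± 0.0245 RPKM without (log2 3.23 ± 0.29, adjusted p = 0.00205). Of the untreated libraries only that of number 11 reached the filter for Pkib (0.111 RPKM). With a pseudocount of 1 its estimate was 1.29 and the call was lost (adjusted p = 0.0567).

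The IL4 libraries were then set against the other treatments, to see which of these levels differed from theirs. These comparisons share the IL4 libraries and are not independent of each other. Against IGF1, 1 of 13080 genes was called (0.00765%), and 458 had an unadjusted p under 0.05. That gene, Gm9797, was at 0.576, 1.91, 0.508 and 0.447 RPKM with IL4 and at 0, 0.182, 0 and 0 RPKM with IGF1 (limma adjusted p = 0.0228), and leaving out any number ended its call in this direction. Retnla was 8.505 ± 1.83 RPKM with IGF1 (SD, n = 4), and IL4 minus IGF1 was 0.07 on the log2 scale (95% interval -0.13 to 0.26). The interval was -0.09 to 0.19 for Lipg, -0.11 to 0.13 for Chil3, -0.04 to 0.14 for Jak2, -0.22 to 0.07 for Socs3 and -0.19 to 0.23 for Fcmr. Among 102 genes picked for naming, the interval left out 0 for Pdcd1lg2 (0.05 to 0.69), Ccl7 (0.53 to 2.169), Gm15956 (-1.13 to -0.53), Hist1h2br (-1.68 to -0.39), Sox4 (-0.46 to -0.01) and Zbp1 (-0.55 to -0.04), and none of these was called. As given at the start, the IGF1 libraries were the nearest of all groups to the IL4 libraries of their own number, and the cause was not tested.

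Against insulin at 10 ng/mL, 303 of 13091 genes were called (2.31%), 268 higher with IL4 (2.05%) and 35 lower (0.267%). Retnla was 0.274 ± 0.286 RPKM with insulin (log2 difference 4.96, adjusted p = 0.00669), Lipg 0.142 ± 0.0950 RPKM (5.65, adjusted p = 0.000266) and Jak2 33.0 ± 4.35 RPKM (0.90, adjusted p = 0.00241), all SD with n = 4. Without number 9 the comparison called 167 genes, 8 of them lower, without number 11 it called 182, 9 of them lower, and without number 6 it called 20 lower genes.

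Against LPS/IFNγ, 3716 of 13082 genes were called (28.4%), 2658 higher with IL4 (20.3%) and 1058 lower (8.09%). Retnla was 0.133 ± 0.139 RPKM, Chil3 1518 ± 207 RPKM and Havcr2 0.294 ± 0.107 RPKM with LPS/IFNγ, all lower than with IL4 (log2 difference, IL4 minus LPS/IFNγ, 5.45, 1.74 and 4.61; adjusted p = 0.000332, 1.36e-05 and 2.41e-05). Other genes raised by IL4 were higher still with LPS/IFNγ. Socs3 was 96.9 ± 6.66 RPKM, Socs1 64.9 ± 9.77 RPKM, Irf7 74.3 ± 7.51 RPKM, Plac8 547 ± 82.99 RPKM and Serpina3g 65.8 ± 6.87 RPKM with LPS/IFNγ, at log2 differences of -3.70, -3.21, -2.09, -1.93 and -3.01 (the highest adjusted p was 0.00012). Clec7a was 349 ± 39.2 RPKM and did not differ past the threshold (log2 difference -0.13, 95% interval -0.38 to 0.12). Tnf was at 266 to 346 RPKM and Il12a averaged 4.97 ± 1.41 RPKM with LPS/IFNγ, both higher than with IL4 (adjusted p = 0.000341 and 5.98e-05), and Nos2 averaged 1.56 ± 0.752 RPKM (adjusted p = 8.76e-05).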

How the data were processed

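Neutrophil RNA was prepared with TRIzol, made into stranded mRNA libraries and sequenced as single reads on an Illumina HiSeq. The authors converted the reads with bcl2fastq 2.17.1.4, mapped and counted them in CLC Genomics Workbench against mouse mm10 (GRCm38), and deposited 1 table per library with RPKM per gene. Whether reads were counted by strand is unstated, so values of overlapping and antisense genes are uncertain. The deposited values were used as they stand. RPKM steps came out as whole reads (within 0.0001) at the annotated exon length for 14722 of 21058 genes with a value and at a fitted length for the other 6336, and mapped reads per library were taken from these steps. Counting intervals cover counting error only.

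The comparison of 4 IL4 with 4 untreated libraries used limma 3.58.1 (R 4.3.3; lmFit, then eBayes with trend and robust settings), two-sided, on log2(RPKM + 0.1), for genes of at least 0.1 RPKM in at least 4 of 8 libraries, with the library number as a block. Deviations from the group means correlated at 0.178, 0.532, 0.255 and 0.419 within numbers 6, 9, 10 and 11 and at -0.362 to 0.163 across numbers, so the numbers were taken to pair the samples. The number stands in the header of each file. IL4 was set against IGF1, LPS/IFNγ and insulin at 10 ng/mL in fits of the same form, and insulin at 100.0 ng/mL was not set against IL4. Positions are those of GENCODE M21 on GRCm38.

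The members and the gene lists were chosen with earlier results of these data known, and list counts carry no set test. Some genes are not reported here. Named genes were those the study names in connection with IL4, the 12 largest rises and 12 largest falls among called genes whose higher group averaged 1 RPKM or more, the 8 rises and 4 falls largest in RPKM, the IL4 receptor and JAK/STAT list, and up to 4 called members of each other list; list members outside this rule, such as marker genes, were named after their values were seen. The fits were tested on simulated data. Alternatives changed the pseudocount, the filter, the scaling, the block, the shared spread, the libraries in the fit, the thresholds and the unit (voom on the recovered reads), or left out each number with both of its libraries. Figures were drawn with matplotlib 3.10.9.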

Additional observations from a re-analysis of the deposited data

Results flagged for a closer look

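In 206 groups of 4 libraries (103 named genes in each of both groups), 10 had 1 library whose gap to its nearest neighbour exceeded Dixon's 95% critical share of the range of the group, and chance gives about 1 in 20. In 6 of them the untreated libraries were at 0 except 1: Arg1 at 0.0509 RPKM with number 9, Fam19a3 at 0.00891 RPKM with number 10, Gm16341, a gene of unknown role, at 0.225 RPKM with number 11, Ltc4s at 0.0510 RPKM with number 9, Ccl7 at 0.0997 RPKM with number 10 and Batf3 at 0.0235 RPKM with number 9. These values rest on 1 or 2 reads each.

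Apoe was at 29.6 RPKM in the untreated library 9, against 15.2 to 16.8 RPKM in the other untreated libraries. Without number 9 its adjusted p was 0.0074 and it was still called. Bhlhe40 was at 6.16 RPKM in the untreated library 6, against 10.2 to 10.7 RPKM in the others, and was still called without number 6 (adjusted p = 0.00585). Ccl7 was at 0.422 RPKM in the IL4 library 10, against 0.188 to 0.213 RPKM in the others. Ccr2 was at 2.14 RPKM in the IL4 library 6, against 1.00 to 1.15 RPKM in the others, and without number 6 it was no longer called (adjusted p = 0.0564). Of the 10 libraries, 2 were IL4 libraries and 8 untreated libraries, 4 of them with number 9.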

How the results depend on the processing

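Over 15 alternatives, 102 named genes gave 1517 values: 1355 kept their direction and side of the threshold, 140 lost the call, 4 gained one and 18 changed sign, and no called gene changed sign. Of 81 called named genes, 34 were called in every alternative. The alternatives called 181 to 522 genes, against 345. With a pseudocount of 1 there were 209 (194 higher, 15 lower), and 13 named genes lost their call (Arg1, Fam19a3, Pkib, Gm16341, Cxcr3, Gm15956, Ccl7, Csf2rb, Srm, Iigp1, Zbp1, Ccr2 and Batf3); there were 522 with adjusted p alone (73 lower), with a 2-fold threshold 181 (168 higher, 13 lower), with 24 libraries in one fit 69 lower, and with voom on recovered reads 425 (52 lower). Without the replicate block 218 genes were called, 213 of them among the 345, and 6 were lower; 27 named genes lost their call. Leaving out 1 number gave 224 to 314 genes, 206 to 275 higher and 17 to 39 lower, and the cause was not tested.

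Sign changes were confined to signalling genes near 0. Under median of ratios scaling, which moved the median of all genes tested to -0.02, the log2 fold changes were -0.035 for Tyk2, -0.037 for Stat5b, -0.027 for Pik3r1, -0.031 for Pik3cd, -0.0027 for Ptpn6 and -0.031 for Ptpn11. With 1 number left out in turn, the estimates ran from -0.088 to 0.0035 for Stat6, -0.075 to 0.015 for Il2rg, -0.024 to 0.057 for Tyk2, -0.054 to 0.067 for Stat5b, -0.0085 to 0.038 for Pik3r1, -0.016 to 0.054 for Pik3cd, -0.014 to 0.075 for Ptpn6 and -0.023 to 0.072 for Ptpn11. Il12a was called lower under median of ratios (log2 -0.59, adjusted p = 0.0294).

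Against IGF1, 0 genes were called without the replicate block or with a pseudocount of 1, and 0 to 1 (0 higher, 0 to 1 lower) with 1 number left out. Against LPS/IFNγ a pseudocount of 1 gave 2326 genes (1575 higher), no replicate block 3555, and leaving out 1 number 3315 to 3867 (2299 to 2786 higher, 945 to 1081 lower). Against insulin at 10 ng/mL the counts were 178 (172 higher, 6 lower) without the replicate block, 190 (175 higher, 15 lower) with a pseudocount of 1, and 167 to 288 (159 to 246 higher, 8 to 42 lower) with 1 number left out.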

Other observations

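Gene families outside the lists were counted by symbol after values had been seen, so their counts are descriptions. Of 11 MHC class II genes tested, 5 were higher with IL4 and none lower: H2-DMb2, H2-DMa, H2-DMb1, Cd74 and H2-Ab1, with a family median log2 fold change of 0.36 against 0.02 over all genes, of which 2.38% were called higher and 0.252% lower. All 5 also had the order of library numbers seen in B cell genes. So did 80 of all 312 higher genes (25.6%), among them Iars, Tars, Slc7a5, Il1rl1, Cd8a and Pkib. Of 21 C-type lectins 7 were higher and Clec2i was lower. The IL1 receptor family had 3 of 8 higher (Il1rl1, Il1rap and Il1rl2), the SIRP family 3 of 4 (Sirpb1a, Sirpb1b and Sirpb1c) and the CD300 family 2 of 8 (Cd300ld and Cd300lf). The Sirpb1 genes are near copies of each other, so how reads were divided among them is uncertain, as it is for the guanylate-binding proteins (3 of 9 higher) and the immunity-related GTPases (3 of 7 higher). Gbp11, 1 of the 3 guanylate-binding proteins called, was tested only because of its IL4 libraries, so this count is not evidence of a direction. Of the GTPases called, Iigp1 also had untreated libraries under 0.1 RPKM.

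Of 20 cytosolic aminoacyl-tRNA synthetases, which charge tRNAs with amino acids, 3 were higher (Lars, Iars and Tars), with a family median of 0.33, where 2.38% of all genes were called higher. Of 17 mitochondrial synthetases 0 were called, with a median of 0.09, and the difference between these families was not tested. None of 83 cytosolic ribosomal protein genes was called, with a median of 0.0036. Slc7a5, a carrier of large neutral amino acids, was the 1 of 8 Slc7a genes that was higher.

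Some called genes lie beside each other. With gaps of at most 100000 bases, 7 groups of 3 or more called genes were found, holding 23 genes that were all higher with IL4 (GRCm38). Of all 345 called genes 312 were higher, and 2.38% of all genes tested were called higher. Each span begins and ends at a called gene, so the share called within it is partly set by that choice. Of the groups not described below, 1 holds Sirpb1a and Sirpb1b, near copies of each other. Another holds Ugt1a7c, Ugt1a6a and Ugt1a1, all of the Ugt1a family. How reads were divided among these is uncertain, so the 23 genes are not all independent. Tns1, Rufy4, Cxcr2 and Cxcr1 lie on chromosome 1 from 73910231 to 74194631, where all 4 tested genes were called. Jak2, Cd274 and Pdcd1lg2 lie on chromosome 19 from 29251828 to 29471161, 3 of 6 tested genes. H2-DMa, H2-DMb2, H2-DMb1 and H2-Ab1 lie on chromosome 17 from 34119541 to 34269419, 4 of 12 tested genes.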
